A study of Mus musculus with 4 samples.

Results

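The genes described here are the homeobox genes *Alx1*, *Alx4*, *Msx1*, *Msx2*, *Prrx1* and *Prrx2* together with *Twist1*, a basic helix-loop-helix gene. They were taken as the rows of the count tables that carry these symbols, and all 7 members were found among 32285 genes. RNA of single cells was measured in E9.5 mouse embryos, in which Cre from the *Tbx1* locus removes floxed *Kmt2d* and switches on GFP. The cHet group (Tbx1Cre/+ with Kmt2d F/+ and GFP F/+) keeps 1 working copy of *Kmt2d* in the lineage, and the cKO group (Tbx1Cre/+ with Kmt2d F/F and GFP F/+) keeps none. The Cre is knocked into *Tbx1*, so both groups are also *Tbx1* heterozygous, and there were no libraries with intact *Tbx1* or intact *Kmt2d*. The labels give the strain as outbred SwissWebster, while the methods of the study describe a background mixed with C57BL/6. GFP-positive, DAPI-negative cells were sorted from the pharyngeal region and heart of pooled embryos. Pools held 4 embryos per library in the first replicate (Rep1) and 3 in the second (Rep2), which gave 2 libraries per genotype. By the somite counts in the study's supplement, the cKO range of Rep1 lay within the cHet range. In Rep2 the cKO embryos were at or above the top of the cHet range. The part of stage in the genotype differences was not tested.

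All 7 genes encode transcription factors of embryonic mesenchyme. *Prrx1* and *Prrx2* are paired-related factors of limb and craniofacial mesenchyme, and *Alx1* and *Alx4* are aristaless-like factors needed for the frontonasal region and skull. *Msx1* and *Msx2* are mostly repressors that respond to BMP signaling in mesenchyme and surface ectoderm, and *Twist1*, which binds E-boxes as a dimer, maintains cranial mesenchyme and promotes epithelial-to-mesenchymal transition. Much of the face in which these genes are known to act comes from the neural crest, whereas the *Tbx1* lineage is mainly mesoderm and epithelium. KMT2D methylates histone H3 lysine 4 at enhancers.

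The homeobox is shown for 5 members because it is what divides them by family. It is 180 bases long, was read from GENCODE M21 mouse transcripts (GRCm38), and is written 5′ to 3′ with capitals for the 6 codons of the conserved stretch in the DNA recognition helix.
Alx1: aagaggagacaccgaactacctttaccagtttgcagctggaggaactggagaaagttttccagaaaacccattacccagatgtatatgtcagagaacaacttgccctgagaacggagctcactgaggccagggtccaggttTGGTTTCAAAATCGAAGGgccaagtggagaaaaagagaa
Alx4: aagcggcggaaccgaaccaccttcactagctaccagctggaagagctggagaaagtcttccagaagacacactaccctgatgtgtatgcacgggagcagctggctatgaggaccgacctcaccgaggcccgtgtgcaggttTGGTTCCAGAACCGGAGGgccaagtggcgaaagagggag
Msx2: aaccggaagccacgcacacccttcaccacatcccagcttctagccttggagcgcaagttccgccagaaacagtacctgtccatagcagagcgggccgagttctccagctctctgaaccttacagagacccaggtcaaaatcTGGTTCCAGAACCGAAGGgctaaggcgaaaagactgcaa
Prrx1: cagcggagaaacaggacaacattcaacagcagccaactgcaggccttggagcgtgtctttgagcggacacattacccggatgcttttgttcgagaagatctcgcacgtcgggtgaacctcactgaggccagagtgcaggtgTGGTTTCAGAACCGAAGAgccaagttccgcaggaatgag
Prrx2: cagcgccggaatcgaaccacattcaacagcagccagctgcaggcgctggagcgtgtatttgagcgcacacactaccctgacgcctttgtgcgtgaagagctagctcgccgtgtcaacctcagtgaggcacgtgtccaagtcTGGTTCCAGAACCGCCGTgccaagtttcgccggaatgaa
Members of a family differ little in the encoded homeodomain. *Prrx1* and *Prrx2* shared 96.7% of residues and 78.9% of bases, and *Alx1* and *Alx4* shared 91.7% and 76.7%. Between *Alx* and *Prrx* genes 68.3% to 70.0% of residues were the same, and between *Msx2* and these 4 only 40.0% to 46.7%.

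The members lie apart in the genome. In GENCODE M21 (GRCm38), *Alx1* is at chr10:102998707-103030215, *Msx1* at chr5:37820485-37824583, *Msx2* at chr13:53466884-53473074 and *Prrx1* at chr1:163245119-163313710, all on the minus strand, while *Alx4* is at chr2:93642384-93681339, *Prrx2* at chr2:30834972-30881251 and *Twist1* at chr12:33957671-33959829 on the plus strand. *Alx1* overlaps *Gm17028* on its own strand, so reads in the shared part could be counted to either gene or to none. On the other strand, *Alx4* overlaps *Ext2* and *Prrx1* overlaps the antisense *Gm20471*. The libraries count 3′ ends by unique molecular identifiers (UMIs), so levels were compared between cell types or genotypes for 1 gene and never between genes.

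The libraries held 179454146 to 234726019 UMIs each. After filtering, 33448 cells were kept. The first replicate gave 5869 cHet and 6291 cKO cells, the second 9350 and 11938. The cHet Rep1 library stood apart: it listed 37093 barcodes against 9307 to 16775 in the others, and kept cells held 60.0% of its UMIs against 86.1% to 91.6%. The libraries of Rep1 shared 12 barcodes among kept cells and those of Rep2 shared 41. Across replicates, which used different kits, none were shared even among all barcodes listed, so this is no measure of mixing. The number expected without mixing was not worked out for any pair. A neural crest-like cluster had 195 cells in cHet Rep1 against 11 to 53 in each other library. A cluster led by *Hes5* and *Rfx4*, genes of neural progenitors, had 86 cHet and 159 cKO cells in the first replicate against 11 and 0 in the second. *Kmt2d* over all cells was 19.1, 17.3, 21.3 and 19.0 CPM (UMIs scaled to a fixed library total, here by the TMM method). Here and below, 4 values in a row give cHet then cKO of the first replicate, followed by cHet then cKO of the second. Its log2 fold change was -0.16 (adjusted p = 0.956). Since 3′ ends are counted, the level of *Kmt2d* says nothing on whether its floxed part was deleted and is no check of genotype. *Tbx1* was 85.5, 85.1, 58.8 and 54.4 CPM.

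Clusters were named from marker lists that left out the 7 members and their paralogues, which were also kept out of the clustering. There were 17102 mesenchyme-like cells, 3276 branchiomeric muscle-like (BrM) cells, 2863 cells like the multilineage primed progenitors (MLPs), 2302 epithelium-like, 2174 anterior second heart field-like (aSHF), 1877 endothelium-like, 1474 posterior second heart field-like (pSHF), 717 neuron-like, 637 cardiac muscle-like and 287 neural crest-like cells. With the members other than *Alx4*, which was not among the variable genes, added to those used for clustering, 96.9% to 99.9% of the cells of a type kept their type. A level below is the CPM of the counts summed over the cells of a type in 1 library, given as the mean ± SD over the 4 libraries of both genotypes. From the comparison of genotypes on, CPM of single genes are scaled by the TMM method instead, while sums of markers are not. Values of the same gene and cells therefore differ between these parts.

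*Prrx1* and *Twist1* were highest in the MLP-like, mesenchyme-like, neural crest-like and aSHF-like cells. *Prrx1* was at 389 ± 102 CPM (SD, n = 4) in MLP-like cells, 337 ± 76.0 in mesenchyme-like cells, 329 ± 153 in neural crest-like cells and 318 ± 57.2 in aSHF-like cells, whose libraries overlapped. A gap followed, to 80.6 ± 15.4 CPM in pSHF-like, 48.3 ± 9.18 in BrM-like, 41.8 ± 14.2 in cardiac muscle-like and 13.7 ± 7.39 in epithelium-like cells, and the level was lowest in endothelium-like cells at 7.11 ± 1.91. The MLP-like value was above the mesenchyme-like one within each of the 4 libraries. *Twist1* was at 503 ± 121 CPM in mesenchyme-like cells, 456 ± 187 in neural crest-like cells and 388 ± 74.1 in aSHF-like cells, then at 212 ± 45.1 in MLP-like cells, 76.2 ± 8.66 in BrM-like and 71.9 ± 4.63 in pSHF-like cells, and at 36.1 ± 5.60 in endothelium-like cells. BrM-like and pSHF-like libraries overlapped, and the mesenchyme-like level of *Twist1* exceeded the aSHF-like level in each library. Neuron-like cells differed by replicate, with *Prrx1* at 81.3, 54.9, 6.65 and 10.2 CPM and *Twist1* at 105, 56.6, 13.1 and 19.5 CPM, high in both libraries of Rep1. The kits, embryos and sorts of the replicates cannot be told apart here.

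*Prrx2* was the most evenly spread member. Its level was 382 ± 40.0 CPM in MLP-like cells and 271 ± 37.6 in mesenchyme-like cells, and 6 further types had means between 158 and 221 CPM, with 124 ± 29.5 in BrM-like cells. Only endothelium-like cells stood clearly lower, at 21.5 ± 3.85 CPM. It also reached epithelium, with 215 ± 10.5 CPM in surface ectoderm-like, 140 ± 42.0 in otic vesicle-like and 123 ± 26.5 in endoderm-like cells, where *Prrx1* was at 8.37 ± 3.93, 9.62 ± 12.6 and 29.4 ± 24.8 CPM. In cells thinned to 5000 UMIs, so that depth was equal, *Prrx2* had a UMI in 47.4% of epithelium-like cells without *Prrx1* and in 50.6% of those with it.

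The 2 *Alx* genes were high in different cells. *Alx1* was highest in aSHF-like cells, at 87.2, 98.5, 117 and 141 CPM in the 4 libraries, followed by pSHF-like cells at 45.3 ± 9.11 CPM and MLP-like cells at 29.6 ± 6.36 CPM, the latter pair overlapping. In mesenchyme-like cells it was at 2.98 ± 0.815 CPM. *Alx4* was highest in mesenchyme-like cells, at 22.9, 23.6, 29.1 and 33.4 CPM, with 6.94 ± 0.569 CPM in aSHF-like cells and 0.424 to 3.84 CPM on average in the other 7 types outside the neural crest. The aSHF-like and mesenchyme-like libraries did not overlap for either gene, and they stood in opposite order.

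Outside the neural crest-like cluster, both *Msx* genes were highest in aSHF-like cells, *Msx1* at 58.0 ± 7.49 CPM and *Msx2* at 49.1 ± 11.6. *Msx1* had its next level in mesenchyme-like cells, at 32.3 ± 6.84 CPM, then in epithelium-like cells at 14.9 ± 0.498 and BrM-like cells at 14.5 ± 7.03. *Msx2* was at 32.1 ± 7.41 CPM in epithelium-like cells, where surface ectoderm-like cells had 61.1 ± 18.2, otic vesicle-like 12.0 ± 4.34 and endoderm-like 5.77 ± 3.26, and at 29.5 ± 17.3 in cardiac muscle-like and 15.0 ± 5.40 in mesenchyme-like cells. Its aSHF-like, epithelium-like and cardiac muscle-like libraries overlapped. The neural crest-like cluster had *Msx1* at 30.7, 74.0, 59.8 and 118 CPM and *Msx2* at 14.8, 30.6, 35.2 and 65.4, from as few as 11 cells in 1 library. MLP-like cells, high in *Prrx1* and *Prrx2*, had *Msx1* at 4.38 ± 1.85 and *Msx2* at 0.616 ± 0.380 CPM.

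**Figure D1:**
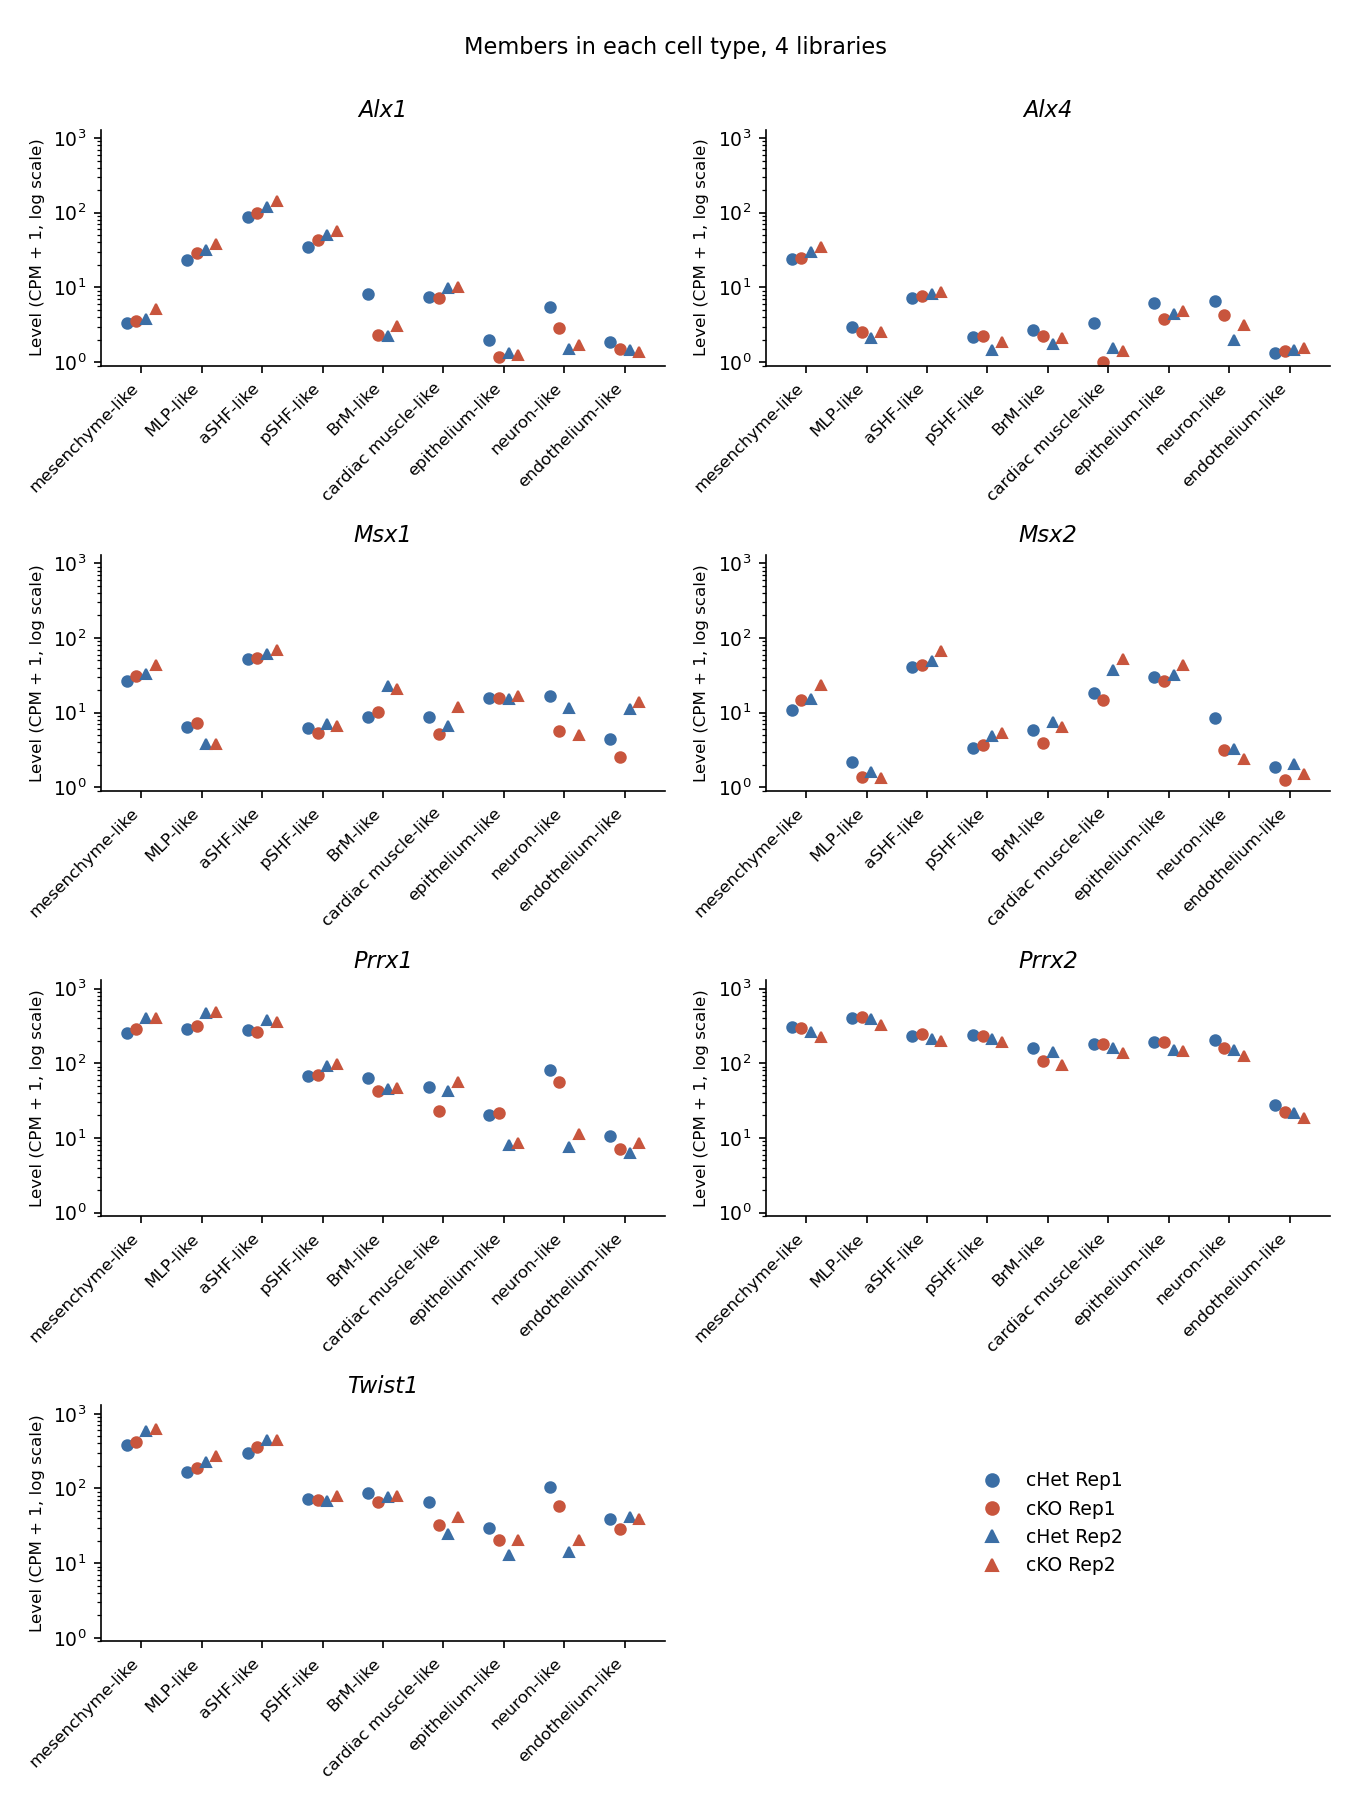
Level of each member (CPM plus 1, log axis) in 9 cell types, 1 point per library, blue for cHet and red for cKO, circles for Rep1 and triangles for Rep2. *Alx1* peaks in aSHF-like cells and *Alx4* in mesenchyme-like cells, and *Prrx2* is spread over all types but the endothelium-like cells. *Msx2* has its highest mean in aSHF-like cells, where its libraries overlap with the epithelium-like and cardiac muscle-like ones.

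Mesenchyme-like cells were not uniform in these genes. Their cluster 0, of 3462 cells and led by *Ptchd4*, *Zic1* and *Wfdc1*, made up 19.4%, 20.5%, 19.5% and 21.1% of mesenchyme-like cells in the 4 libraries. It held 80.8% to 88.0% of mesenchyme-like *Msx1* UMIs, 85.5% to 94.1% of those of *Msx2*, 61.5% to 77.4% of *Alx1*, 44.8% to 46.7% of *Alx4*, and no more than 19.9% of *Prrx2*. Levels in cluster 0 were 118 ± 25.9 CPM for *Msx1*, 58.3 ± 21.0 for *Msx2* and 52.9 ± 10.0 for *Alx4*, against 6.11 ± 0.553, 1.58 ± 0.367 and 19.4 ± 3.33 CPM over the other mesenchyme-like cells. *Prrx2* was instead highest in clusters 4 (471 ± 60.2 CPM) and 9 (438 ± 64.5 CPM), both led by *Cyp26a1* and *Vcam1*, and *Prrx1* was lowest in cluster 8, with *Adamtsl1*, *Tagln* and *Foxl1* among its leading genes, at 105 ± 36.0 CPM. *Twist1* was at 760 ± 198 CPM in cluster 0 and between 351 ± 79.8 (cluster 1) and 479 ± 117 CPM (cluster 4) in the other large clusters, and no library of these 7 clusters was below 278 CPM.

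Within aSHF-like cells the 2 *Msx* genes differed in their pattern over the subclusters. Subcluster 1, led by *Mab21l2* and *Dkk2*, had *Msx1* at 91.0 ± 16.1 CPM and *Msx2* at 109 ± 32.2. Subcluster 3, with *Dach2* and *Hoxd3* among its leading genes, had *Msx1* at 62.7 ± 11.9 but *Msx2* at 14.6 ± 5.17 CPM, with the highest *Alx1* of any group (153 ± 42.5), *Prrx1* at 485 ± 121 and *Twist1* at 598 ± 157. Subcluster 2, which expressed the heart muscle genes *Myocd* and *Myh7*, had *Twist1* at 113 ± 7.62 and *Alx4* at 0.751 ± 0.862 CPM, while *Alx1* stayed at 58.9 ± 12.5. In subcluster 4, with the epicardial genes *Tbx18* and *Wt1*, *Alx1* was at 111 ± 32.7 CPM and *Msx1* at 6.18 ± 3.61.

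**Figure D2:**
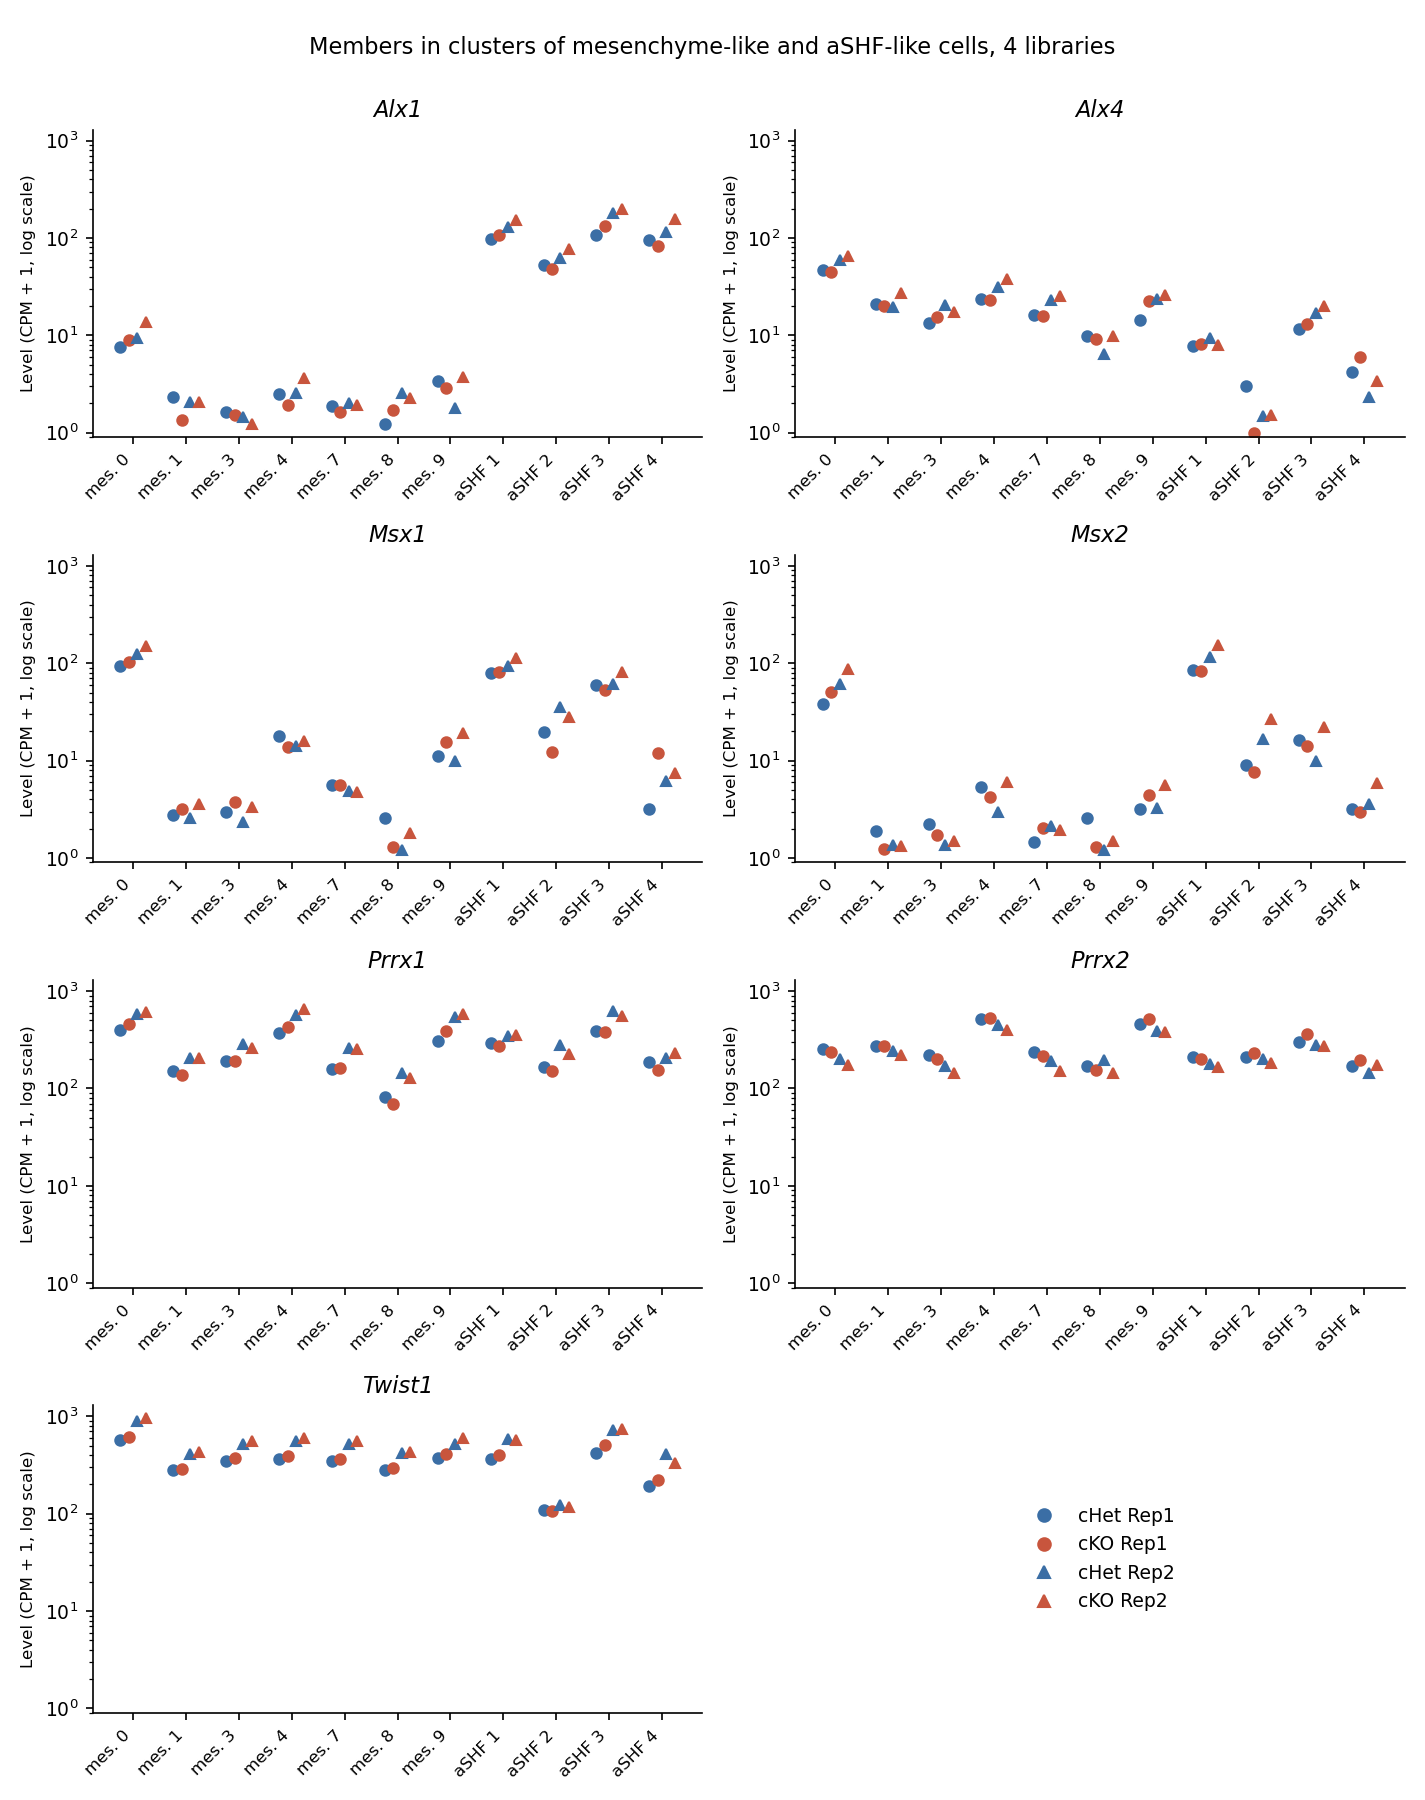
Level of each member (CPM plus 1, log axis) in 7 clusters of mesenchyme-like cells (mes.) and 4 subclusters of aSHF-like cells, 1 point per library with the colors and shapes in the key. Mesenchyme-like cluster 0 stands above the other mesenchyme-like clusters for *Msx1*, *Msx2*, *Alx1* and *Alx4*, and *Twist1* is also highest there among the 7 mesenchyme-like clusters plotted, in each library.

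The 2 *Msx* genes often shared cells. In thinned cells of cluster 0, *Msx2* had a UMI in 33.5% of 1274 cells with *Msx1* and in 15.1% of those without. In aSHF-like subcluster 1 the shares were 47.1% and 31.2%. For *Prrx1* and *Prrx2* in cluster 0 the shares of cells with *Prrx2* were 58.5% and 58.8%. As a measure of free RNA, a main endothelium-like cluster (median 19813 UMIs per cell, against 22720 in cluster 0) had *Msx2* in 0 to 0.416% of thinned cells, *Msx1* in 0 to 2.08% and *Prrx1* in 1.28% to 2.61%, with exact intervals reaching 1.56%, 3.79% and 5.09% at most.

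Likeness of pattern was measured by the Pearson correlation of log2(CPM + 5) over the 10 cell types, a description in which all points come from the same 4 libraries. *Prrx1* and *Twist1* were each other's closest gene (0.936). The closest for *Msx2* was *Id1* (0.956), a BMP-responsive inhibitor of helix-loop-helix proteins, and for *Alx4* it was *Nkd1* (0.923), a Wnt antagonist. *Mab21l2* came first for *Msx1* (0.887), *Aff3* for *Prrx2* (0.949) and *Snrnp48* for *Alx1* (0.890). Between members the next values were 0.748 for *Prrx1* with *Prrx2* and 0.738 for *Msx1* with *Msx2*.

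The genotypes were compared to ask what loss of the second *Kmt2d* copy changed in each cell type. In mesenchyme-like cells both *Msx* genes rose in cKO and the other 5 members did not pass the test. *Msx2* was at 10.9, 15.1, 12.5 and 20.3 CPM, and in these TMM-scaled values both cKO libraries were above both cHet libraries. Its log2 fold change was 0.60 (SE 0.07, adjusted p = 3.87e-05), with 0.47 within Rep1 and 0.70 within Rep2. *Msx1* was at 28.8, 33.6, 28.2 and 37.8 CPM, again without overlap after scaling. Before that scaling, cHet Rep2 was above cKO Rep1 for both genes, so the lack of overlap rests on it. The log2 fold change of *Msx1* was 0.33 (SE 0.06, adjusted p = 0.00223), with 0.22 and 0.42 within the replicates. These are 2 of 7 members, where 2.5% of 17787 genes tested were called (445 genes, edgeR's quasi-likelihood test, Benjamini-Hochberg adjusted p under 0.05). The fit holds the replicate as a block, and without the block neither gene was called (adjusted p of 1.00 for both). The *Msx1* call was also lost with DESeq2 (adjusted p = 0.0931) and with doublets kept (adjusted p = 0.0586).

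The other 5 members were not called in mesenchyme-like cells. *Twist1* had 431, 462, 520 and 567 CPM (log2 fold change 0.11, adjusted p = 0.364), *Prrx1* 288, 320, 354 and 365 CPM (0.10, adjusted p = 0.465) and *Alx4* 25.6, 26.4, 25.9 and 30.1 CPM (0.14, adjusted p = 0.366). *Alx1*, at 2.67, 2.85, 2.50 and 3.77 CPM, had a log2 fold change of 0.38 (adjusted p = 0.269). *Prrx2* was the one member with a lower value in cKO, at 340, 330, 234 and 200 CPM (-0.14, adjusted p = 0.236). The sign was the same in both replicates for 7 of 7 members, against 54.5% of all genes tested, and the median log2 fold change was 0.14 over the members and 0.00034 over all genes.

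Cluster 0 held most of the *Msx* UMIs, and its share of mesenchyme-like cells was higher in cKO in both replicates. The part of that share in the differences over mesenchyme-like cells was not tested. Cluster 0 was also tested alone, and there *Msx2* was called and *Msx1* was not. *Msx2* was at 41.4, 56.5, 52.8 and 77.7 CPM, with a log2 fold change of 0.51 (SE 0.07, adjusted p = 0.00300, and 0.0601 in thinned cells) where 0.431% of genes were called, and *Msx1* was at 103, 116, 110 and 136 CPM (0.24, adjusted p = 0.115). Without the filter on low counts *Msx1* (adjusted p = 0.00956) and *Alx1* (0.48, adjusted p = 0.0295) were called in cluster 0 as well. The share of thinned cluster 0 cells with *Msx2* was 15.6% (95% exact interval 12.6 to 19.0) in cHet and 18.2% (15.6 to 21.0) in cKO of Rep1, and 20.6% (18.0 to 23.4) and 27.8% (25.3 to 30.4) in Rep2. Unthinned, it was 42.9%, 48.0%, 49.3% and 52.5%. For *Msx1* the thinned shares were 31.3% and 35.6% in Rep1 and 34.5% and 41.6% in Rep2. These intervals cover counting error only, and they overlapped between genotypes in Rep1 and not in Rep2. Over the mesenchyme-like cells outside cluster 0, *Msx2* was at 2.04, 1.73, 0.957 and 1.69 CPM (0.32, adjusted p = 0.783) and *Msx1* at 7.11, 6.80, 4.76 and 5.98 CPM (0.14, adjusted p = 0.792), each with opposite signs in the 2 replicates.

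The 8 markers of the neural crest, which also expresses *Msx* genes, summed to 5.91, 4.83, 4.88 and 4.48 CPM in mesenchyme-like cells and to 5.14, 4.10, 5.67 and 4.82 CPM in cluster 0, with 0 to 2 of the 8 at zero in a library. The 6 epithelium markers summed to 14.4, 10.2, 6.86 and 6.35 CPM in cluster 0, lower in cKO in both replicates. The 5 endoderm markers summed to 15.4, 8.59, 15.4 and 9.08 CPM there, also lower in cKO in both, with 2 to 4 of the 5 at zero in a library. Without the small mesenchyme-like cluster 23 (109 cells, 3 of them in cHet Rep1), both *Msx* genes kept their calls (adjusted p = 0.0118 for *Msx1* and 0.000759 for *Msx2*, 1.65% of genes called). The part of cells of other types in the *Msx* calls was not tested.

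The sequence before the RefSeq start of both genes is given because both were called in mesenchyme-like cells. The 250 bases before the RefSeq start of *Msx1* (chr5:37824586-37824835, minus strand) and of *Msx2* (chr13:53472781-53473030, minus strand) come from RefSeq on GRCm38.p6, with capitals for TAATTA, a core motif of paired-type and *Msx* homeodomains that reads the same on both strands.
Msx1: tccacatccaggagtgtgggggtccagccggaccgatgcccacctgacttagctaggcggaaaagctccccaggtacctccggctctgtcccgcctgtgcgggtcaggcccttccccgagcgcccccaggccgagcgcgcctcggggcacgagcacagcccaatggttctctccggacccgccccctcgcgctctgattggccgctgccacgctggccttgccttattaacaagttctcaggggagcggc
Msx2: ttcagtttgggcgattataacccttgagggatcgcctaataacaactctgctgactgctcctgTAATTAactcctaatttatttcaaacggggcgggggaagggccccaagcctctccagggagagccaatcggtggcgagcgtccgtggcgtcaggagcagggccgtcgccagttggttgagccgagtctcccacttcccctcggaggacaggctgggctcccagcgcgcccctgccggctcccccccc
RefSeq and GENCODE place some starts differently, and the windows of *Msx2* and *Prrx2* lie inside the GENCODE spans of these genes given above. TAATTA occurred once in the window of *Msx2*, once in that of *Prrx1*, and not in the windows of *Msx1*, *Prrx2* and *Twist1*. Of 32851 such windows 4.84% held it. The G and C content was 68.0% for *Msx1* and 61.6% for *Msx2*.

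Of the 7 clusters tested within mesenchyme-like cells, 3 others gave a call. Clusters 1, 3 and 7 gave none, where 1.91%, 0.969% and 0.0866% of genes were called. *Msx1* rose in cluster 9, from 12.1 to 16.8 CPM in Rep1 and from 7.55 to 15.7 CPM in Rep2 (log2 fold change 0.80, SE 0.19, adjusted p = 0.00712, 0.848% of genes called), with 0.47 and 1.03 within the replicates. *Prrx1* rose in cluster 4, from 424 to 494 CPM and from 494 to 574 CPM (0.22, SE 0.06, adjusted p = 0.0247, 1.48% called), but was not called with RLE scaling (adjusted p = 0.101) or without the filter on low counts (0.0547). *Prrx2* fell in cluster 8, from 190 to 169 CPM and from 176 to 129 CPM (-0.32, SE 0.07, adjusted p = 0.0289, 0.929% called), with -0.17 and -0.45 within the replicates. Over the clusters *Twist1* had a positive log2 fold change in 7 of 7 (0.05 to 0.19) and *Prrx2* a negative one in 6 of 7 (-0.32 to 0.09), most of them not called. DESeq2 and thinned cells gave no call for *Msx1* in cluster 9, *Prrx1* in cluster 4 or *Prrx2* in cluster 8.

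**Figure D3:**
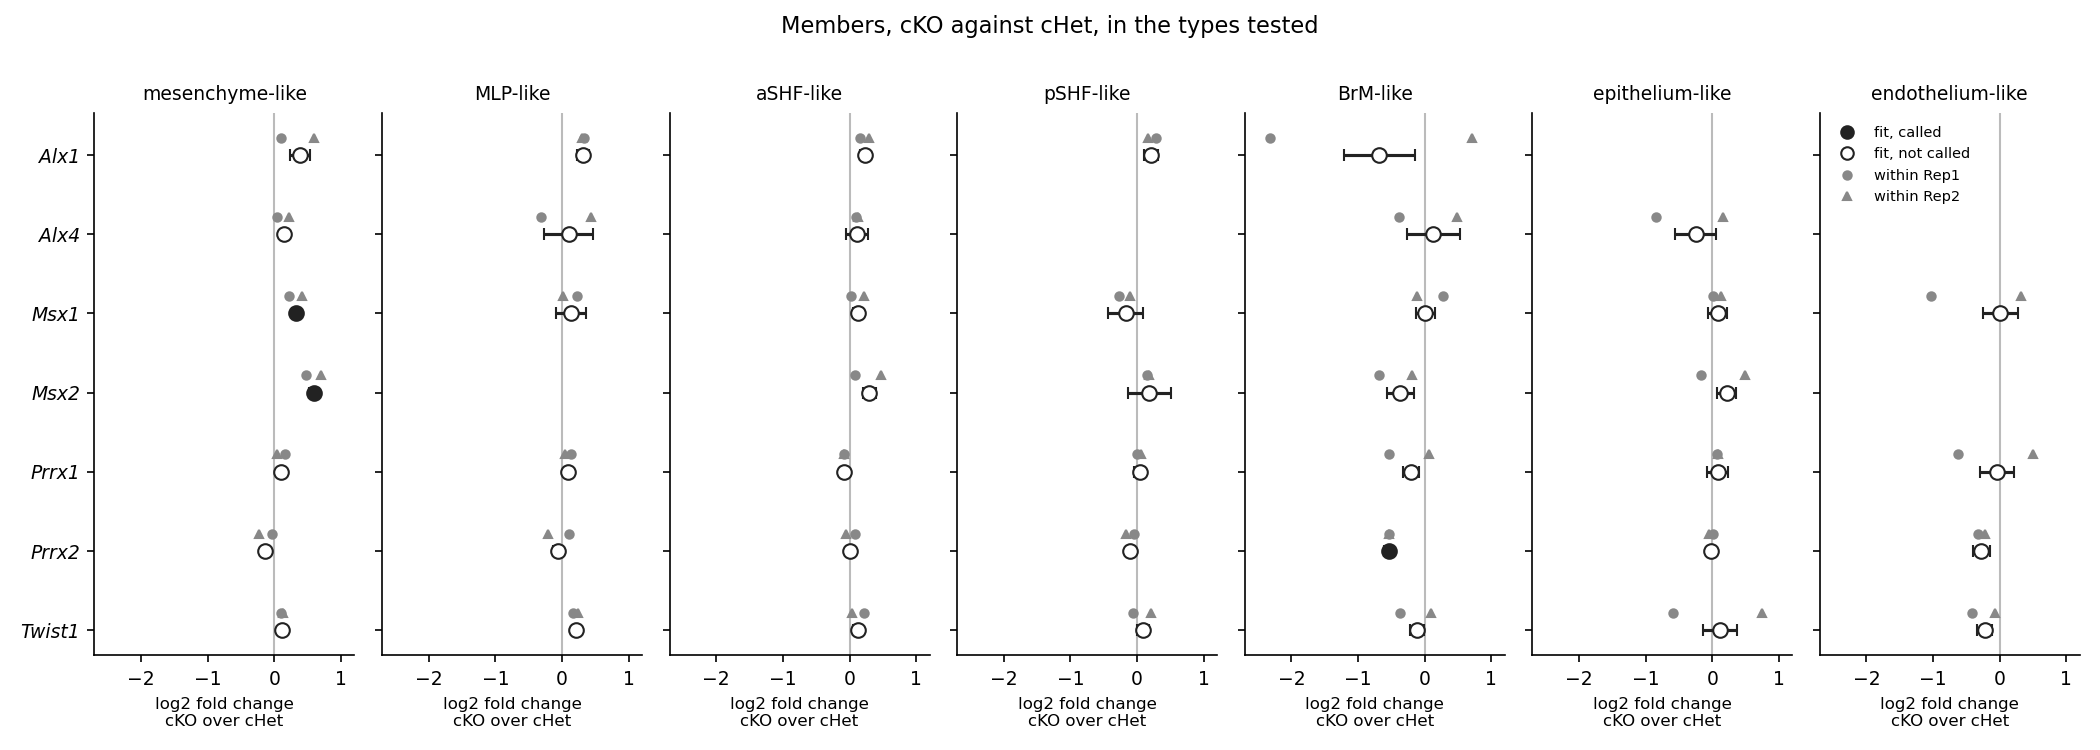
Log2 fold change of cKO over cHet (horizontal axis) for each member in the types tested, with the fitted value (filled where the adjusted p was under 0.05, open otherwise, with bars of 1 SE) and the differences within Rep1 (small circles) and Rep2 (small triangles). *Msx1* and *Msx2* are filled to the right of 0 in mesenchyme-like cells, and *Prrx2* is filled to the left of 0 in BrM-like cells.

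In BrM-like cells, the precursors of the jaw and facial muscles, *Prrx2* fell in cKO. It was at 176, 121, 123 and 84.4 CPM. The cHet and cKO libraries did not overlap, although the lowest cHet and the highest cKO library were nearly level, and the log2 difference was -0.54 within each replicate. The log2 fold change was -0.54 (SE 0.07, adjusted p = 0.0153), and *Prrx2* was the 1 member called of 7, where 0.31% of 14518 genes were called. The call was lost with RLE scaling (adjusted p = 0.0577) and without the replicate block (adjusted p of 1.00). *Prrx2* had a UMI in 44.8% (39.9 to 49.7) and 34.7% (30.0 to 39.6) of thinned BrM-like cells of Rep1 and in 41.1% (38.2 to 44.1) and 31.6% (29.2 to 34.2) of Rep2, or 78.2%, 68.1%, 78.7% and 61.9% unthinned. In the endothelium-like cluster taken as background the thinned shares were 2.99% to 6.54%.

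Both BrM-like clusters carried the *Prrx2* difference. In cluster 5, led by *Lhx2* and *Tlx1*, *Prrx2* was at 142, 75.6, 101 and 69.1 CPM (-0.71, SE 0.09, adjusted p = 0.00257, 0.328% of genes called). In cluster 13, led by *Emx2* and *Vgll3*, it was at 299, 226, 158 and 119 CPM (-0.40, SE 0.08, adjusted p = 0.00697, 2.07% called). *Prrx1* went different ways in the clusters, with -0.65 in cluster 5 (adjusted p = 0.124) and 0.43 in cluster 13 (adjusted p = 0.066), neither called. Without the filter on low counts both were called (adjusted p = 6.06e-06 and 0.0160), as was *Alx1* in cluster 5 (-1.19, adjusted p = 0.0210). In thinned cells of cluster 13, 3 members passed the count filter and 2 were called, where 94 of 9370 genes were called. *Msx1* rose in cluster 13, from 4.43 to 10.5 CPM and from 4.57 to 9.99 CPM (1.15, SE 0.27, adjusted p = 0.0263), from 9, 32, 47 and 82 UMIs. That call was lost with DESeq2 (adjusted p = 1.00), without the replicate block (1.00) and with doublets kept (0.67, adjusted p = 0.305), and *Prrx2* in cluster 13 was not called by DESeq2 (adjusted p = 0.995) or without the block (1.00). The *Prrx2* call in cluster 5 was also lost without the block (1.00). The 11 mesenchyme markers summed to 1681, 1729, 1932 and 2045 CPM in BrM-like cells, slightly higher in cKO, and the 6 BrM markers to 465, 536, 776 and 915 CPM, while the neural crest markers summed to 20.6, 9.24, 9.05 and 7.47 CPM. Their part in the *Prrx2* difference was not tested.

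The other members were not called in BrM-like cells. *Twist1* had 95.1, 73.4, 66.7 and 71.3 CPM (-0.12, adjusted p = 0.951), *Prrx1* 69.0, 47.7, 38.9 and 40.8 CPM (-0.20, adjusted p = 0.853) and *Msx2* 5.43, 3.32, 5.69 and 4.96 CPM (-0.36, adjusted p = 0.787). *Alx1* had 7.97, 1.51, 1.10 and 1.88 CPM, high in cHet Rep1 alone. That library also had the most neural crest markers there and the most pSHF markers, which summed to 17.6, 6.13, 4.38 and 3.54 CPM. The part of these markers in the *Alx1* values was not tested. The median over the 7 members was -0.20 and over all genes 0.0059.

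**Figure D4:**
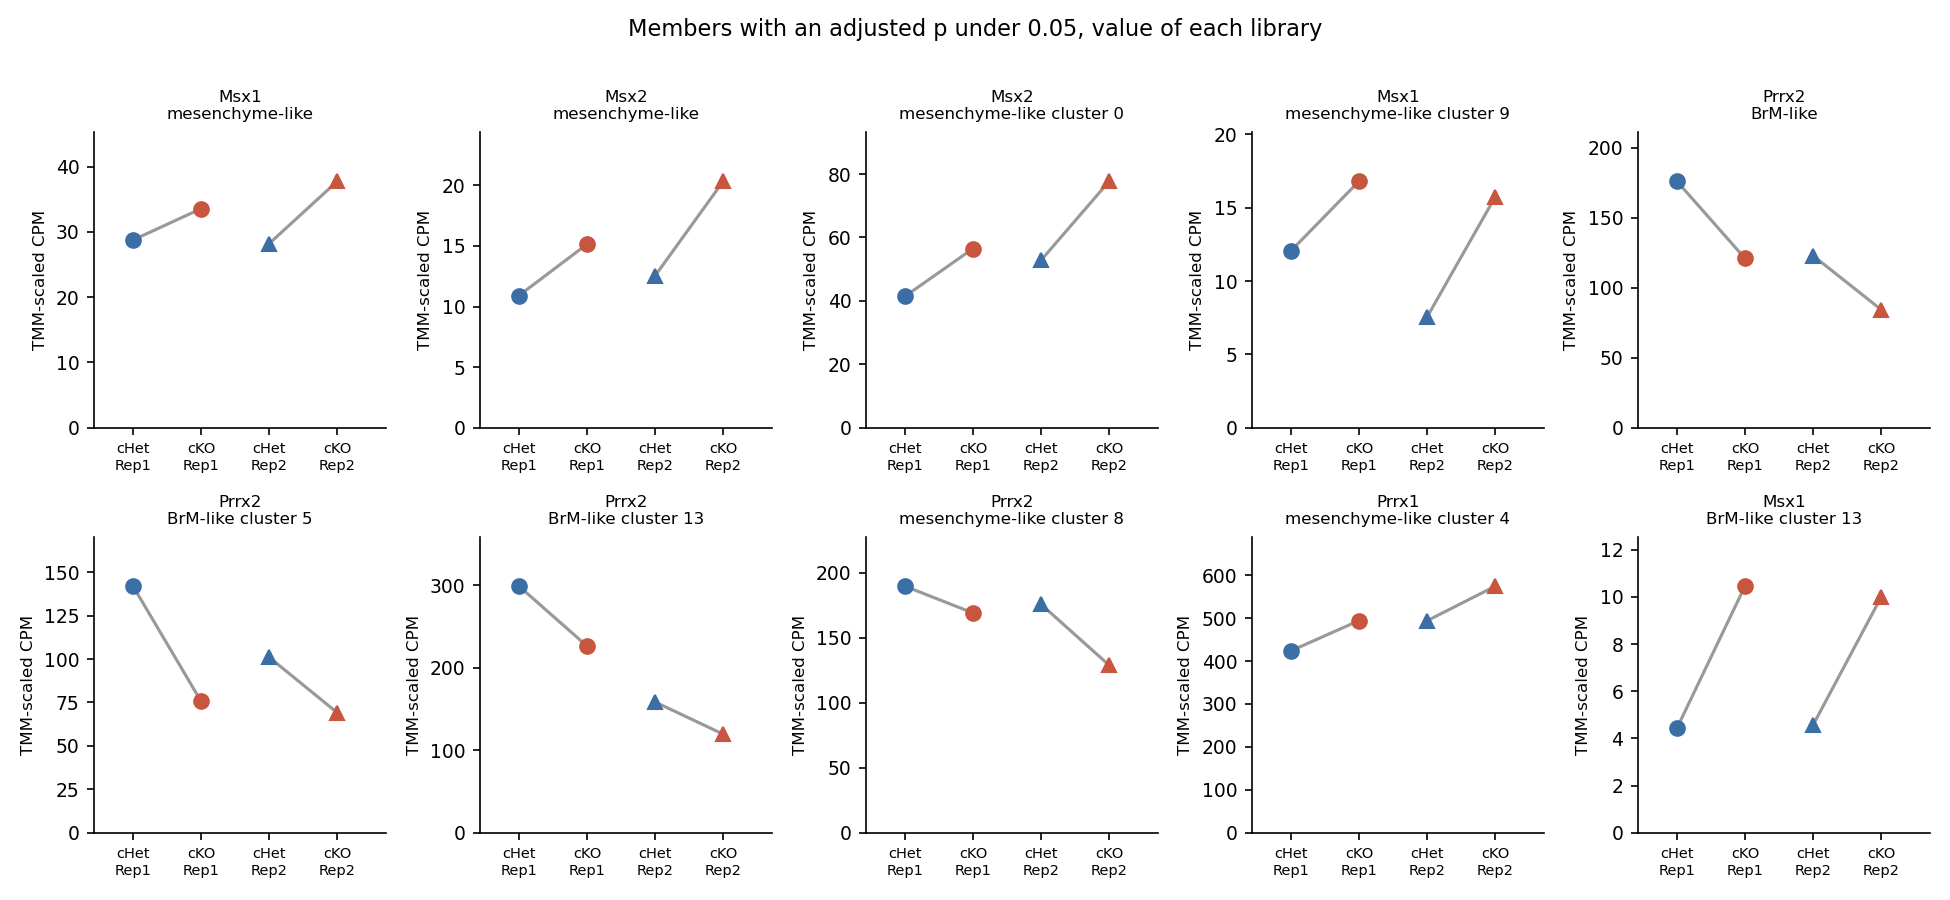
TMM-scaled CPM (vertical axis from 0) in each library for 10 comparisons with an adjusted p under 0.05, in mesenchyme-like and BrM-like cells and their clusters, with lines joining cHet to cKO of the same replicate. In each panel both lines go the same way, up for *Msx1*, *Msx2* and *Prrx1* and down for *Prrx2*.

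No member was called in the heart field and progenitor types, where few genes were called at all. In aSHF-like cells, in which 0.00724% of genes were called, *Alx1* was at 99.4, 111, 103 and 126 CPM (log2 fold change 0.23, adjusted p = 0.721), and *Msx2* at 45.4, 48.2, 42.2 and 58.6 CPM (0.30, adjusted p = 0.881). Both had an unadjusted p under 0.05 there. In MLP-like cells (0.0213% of genes called) the unadjusted p was under 0.05 for *Alx1*, at 25.1, 31.6, 27.1 and 33.5 CPM (0.32, adjusted p = 0.555), and for *Twist1*, at 188, 210, 201 and 239 CPM (0.21, adjusted p = 0.488). In pSHF-like cells (0.269% called) no member had an unadjusted p under 0.05, and *Alx1* was at 39.0, 47.5, 43.9 and 49.0 CPM (0.21, adjusted p = 0.938). None of the aSHF-like subclusters gave a call of a member, where 0.0588%, 0.0173%, 0.0644% and 0.158% of genes were called in subclusters 1 to 4. Nor did cardiac muscle-like cells (0.0507% called), in which *Msx2* was at 18.7, 15.5, 32.5 and 47.2 CPM (0.37, adjusted p = 1.00), with opposite signs in the 2 replicates. Over all cells edgeR called 0% of 20126 genes (1139 had an unadjusted p under 0.05) and DESeq2 called 62. *Msx1*, *Msx2*, *Alx4* and *Twist1* had an unadjusted p under 0.05, with log2 fold changes of 0.33, 0.42, 0.28 and 0.22. None of these was called, and DESeq2 called no member over all cells or in aSHF-like, MLP-like or pSHF-like cells.

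In epithelium-like cells as a whole (0.0283% of genes called) no member was called. The otic vesicle-like cluster passed 6 of 6 epithelium markers, but had none of them and 1 neural crest marker (*Dlx5*) among its top 10 genes. The 3 epithelium-like clusters were therefore read separately. In surface ectoderm-like cells (0.0158% called) *Msx2* was at 50.5, 55.3, 59.6 and 74.7 CPM (0.25, adjusted p = 0.999) and *Twist1* at 39.1, 39.1, 19.8 and 35.3 CPM (0.46, adjusted p = 0.999). In endoderm-like cells (0.218% called) *Prrx1* was at 32.6, 71.4, 11.1 and 10.8 CPM (0.56, adjusted p = 0.930). In otic vesicle-like cells (1.24% called) *Prrx1* was at 32.6, 3.96, 4.71 and 1.19 CPM (-2.60, SE 0.42, adjusted p = 3.86e-07) and *Twist1* at 34.8, 5.93, 5.54 and 2.72 CPM (-1.85, SE 0.36, adjusted p = 7.26e-05). For both genes cHet Rep1, with 88 cells, was the highest library by far, and within Rep2 alone the differences were -1.57 and -0.89. No test without cHet Rep1 was run in these cells. Both calls were lost with doublets kept (-0.06 and 0.04) and with DESeq2 or without the replicate block (adjusted p of 1.00 in each). The mesenchymal genes *Zeb1*, at 51.9, 0.989, 4.43 and 2.72 CPM, and *Zeb2*, at 46.6, 2.97, 4.16 and 3.23 CPM, were high in the same library. Both were called lower, as was *Cdh11* (-0.77, adjusted p = 2.55e-07), which makes 3 of the 6 mesenchyme and epithelial-to-mesenchymal transition genes tested. *Bmp5* was also called lower (-1.67, adjusted p = 0.0142), and *Bmp4* (0.55, adjusted p = 0.0146) and *Dlx5* (0.45, adjusted p = 0.0142) higher. None of these 6 was called with doublets kept, where edgeR called 0 genes of all tested in these cells (505 at an unadjusted p under 0.05), or without the block (0 called, 97 at an unadjusted p under 0.05). DESeq2 called 1 gene there. The 11 mesenchyme markers summed to 444, 125, 245 and 204 CPM in these cells, highest again in cHet Rep1, with at most 1 of the 11 at zero in a library. The part of these markers in the calls was not tested.

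Endothelium-like cells (0.0694% called) had 4 members above the count filter and none called, nor was any in their clusters 11 (0.041% called) and 19 (0.0993% called) or in the unnamed cluster 18 (0.351% called). The unadjusted p was under 0.05 for *Prrx2*, at 30.8, 24.4, 17.9 and 15.3 CPM (-0.28, adjusted p = 0.999). In neuron-like cells edgeR called 0% of 12304 genes (521 had an unadjusted p under 0.05) and DESeq2 called 4, none a member. *Msx1* was at 17.2, 5.33, 9.56 and 3.66 CPM there (-1.54, SE 0.27, adjusted p = 0.426), without overlap of the genotypes, from 182, 141, 174 and 220 cells. Without the filter on low counts edgeR called 147 genes in these cells, *Msx1* among them (-1.54, adjusted p = 8.88e-05).

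Whether the genotype difference itself varied between types was tested against mesenchyme-like cells. BrM-like cells differed for 5 members: *Msx2* by -0.97 on the log2 scale (adjusted p = 1.24e-05), *Prrx2* by -0.39 (adjusted p = 2.78e-06), *Msx1* by -0.40 (adjusted p = 0.0294), *Prrx1* by -0.27 (adjusted p = 0.0414) and *Alx1* by -0.98 (adjusted p = 0.0457). In this pair 220 of 16919 genes (1.3%) passed. In aSHF-like cells *Prrx1* differed by -0.18 (adjusted p = 0.0189), where 143 of 16598 genes (0.862%) passed. No member passed for MLP-like (1.11% of genes), pSHF-like (0.991%), epithelium-like (0.0918%) or endothelium-like cells (0.317%), and none for any type when the replicate was not allowed its own value in each type.

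Genes that work with these factors mostly did not pass the test. In mesenchyme-like cells, where 2.5% of all genes were called, 1 of 12 BMP ligands, receptors and targets rose, *Bambi*, a decoy receptor induced by BMP, at 19.3, 20.9, 24.2 and 33.9 CPM (0.32, SE 0.07, adjusted p = 0.0165). Of 10 mesenchyme and epithelial-to-mesenchymal transition genes 1 rose, *Snai2*, at 38.5, 42.3, 31.3 and 40.3 CPM (0.25, SE 0.06, adjusted p = 0.0194), while *Postn* had 0.28 (adjusted p = 0.0502). None passed of 4 paralogues tested, of 8 partners and inhibitors of TWIST1, and of 13 cranial mesenchyme transcription factors, with median log2 fold changes of 0.14, 0.02 and -0.21. *Bmp4*, which encodes a ligand known to induce *Msx* genes, was at 32.9, 27.6, 19.6 and 19.8 CPM (-0.12, adjusted p = 0.560). In cluster 9 (0.848% of genes called), where *Msx1* rose, *Bambi* (0.62, adjusted p = 0.00112), *Snai2* (0.37, adjusted p = 0.0352) and *Postn* (0.88, adjusted p = 1.46e-07) rose also. In cluster 4 (1.48% called), where *Msx1* had -0.05 and was not called, *Bambi* (0.49, adjusted p = 0.000200), *Snai2* (0.33, adjusted p = 0.00305) and *Vim* (0.30, adjusted p = 5.43e-05) rose, and in cluster 0 no gene of the 5 lists passed. In cluster 1 (1.91% called) *Twist2* fell (-0.26, adjusted p = 0.0315) and *Cdh2* rose (0.32, adjusted p = 0.00348). *Kmt2d* (-0.41, adjusted p = 0.0263) and *Tbx1* (-0.28, adjusted p = 0.0363) fell in cluster 4.

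In BrM-like cells as a whole no gene of the 5 lists passed. In their cluster 13 (2.07% of genes called) 5 genes rose by 0.39 to 1.12. They were *Shox2* of 2 paralogues tested, *Id2* of 7 partners and inhibitors of TWIST1, *Vim* and *Cdh2* of 9 mesenchyme and epithelial-to-mesenchymal transition genes, and *Bmp5* of 11 BMP genes. Of 6 cranial mesenchyme transcription factors tested there, *Barx1* fell (-2.66, adjusted p = 0.00170). In cluster 5 (0.328% called) *Id1*, of 9 partners and inhibitors, fell (-0.39, adjusted p = 0.0278). In pSHF-like cells (0.269% called) *Shox2*, a relative of the *Prrx* genes, rose from 5.35 to 17.4 CPM in Rep1 and from 6.02 to 15.2 CPM in Rep2 (1.46, SE 0.20, adjusted p = 0.00272). The 6 cardiac muscle markers, with 0 at zero in any library, summed there to 299, 451, 306 and 625 CPM, also higher in cKO in both replicates, and their part in the *Shox2* difference was not tested. *Shox2* also rose in aSHF-like subcluster 4, at 2.53, 31.8, 0 and 16.6 CPM (adjusted p = 0.00281, 0.158% of genes called), and *Sox9* in the unnamed cluster 18 (0.92, adjusted p = 3.13e-05, 0.351% called).

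The calls of these related genes rest on the replicate block. Without it edgeR called 0 genes of all tested in mesenchyme-like cells, their clusters 1, 4 and 9, BrM-like clusters 5 and 13, pSHF-like cells, aSHF-like subcluster 4 and cluster 18, with 43 to 164 at an unadjusted p under 0.05 in each. DESeq2, run with the block, called 112 genes in mesenchyme-like cells, 39 in cluster 1, 3 in cluster 4, 1 in cluster 9, 12 and 13 in BrM-like clusters 5 and 13, and 6 in pSHF-like cells. In aSHF-like subcluster 4 and cluster 18, where *Shox2* and *Sox9* were called, DESeq2 called 0 genes (25 and 34 at an unadjusted p under 0.05), and edgeR called 0 in thinned cells (158 and 408).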

How the data were processed

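RNA of sorted *Tbx1*-lineage cells was read in 4 droplet libraries, 2 cHet and 2 cKO. Per gene and barcode, UMIs were counted by the authors in Cell Ranger (7.0.1 in the file headers of Rep1, 8.0.1 in those of Rep2; build mm10 in the submitters' processing notes) and deposited as raw counts. They were used here with no correction for free RNA. Rep1 used a Next GEM and Rep2 a GEM-X kit, so kit and replicate are the same factor. The labels do not say whether a pool was a single litter or several. With the replicate as a block, p-values measure how far the 2 within-replicate differences disagree, with a variance that draws on other genes. They do not measure the spread between pools of a genotype. The spread in the fits without the block includes it, but holds the difference between the replicates and their kits as well. These cannot be told apart here.

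Barcodes with at least 3000 genes, at most 10% mitochondrial and at most 5% hemoglobin UMIs were kept. The automatic threshold of Scrublet marked 0.0150% to 1.74% of barcodes, so doublets were removed by score at the share expected for the kit (4.03% to 5.78% called). Median depth was 17240.5 to 22972 UMIs per kept cell. Cells were clustered with scanpy 1.11.5 on 2000 variable genes (30 components, 20 neighbours, Leiden at 0.8, leidenalg 0.10.2) after aligning the replicates, without the members and their paralogues. A cluster was named where at least 3 markers of a fixed list each had a UMI in at least 10% of its cells and a mean at least 2-fold that elsewhere (5 CPM added), and clusters left over were tried for mesenchyme against the other named types only. These naming limits, and lists of neural tube and paraxial mesoderm genes that bar a name, were set after seeing the data. Mesenchyme-like clusters 0, 9 and 23 got their name only when tried against the other named types, with 4, 6 and 4 of the 11 markers. Clusters 18 and 21 stayed unnamed, with 0.886% to 1.63% and 0% to 2.53% of the cells of a library. Names mean cells like that type.

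Counts were summed per library and type and compared with edgeR 4.0.16 (quasi-likelihood test, two-sided, TMM, filterByExpr) in R 4.3.3, blocked on the replicate, with p-values adjusted over all genes tested by Benjamini-Hochberg. Types with under 20 cells in a library were not tested. The replicates mark the kits, and libraries of the same replicate deviated together from their genotype means (correlations of 0.74 to 0.85 over genes). Differences between types were tested in edgeR, blocked on the library, with a term for the replicate in the other type. Shares of cells with a UMI come from cells thinned to 5000 UMIs, with 95% exact binomial intervals. The genes named were the 7 members, *Kmt2d*, *Tbx1* and 5 related lists, with values for genes that passed and for a few others, picked after their values were seen. Members and lists were chosen with earlier results of these data known. The tests were also tried on simulated data, whose outcome is not given here, and no call above rests on it. Alternatives were RLE scaling, DESeq2 1.42.0, no count filter, no block, doublets kept, thinned cells, clustering with the members (all but *Alx4*) and leaving out each library. The separate epithelium-like, BrM-like, neuron-like and aSHF-like groups and the fits without cluster 0 or 23 were added after seeing the data.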

Additional observations from a re-analysis of the deposited data

Results flagged for a closer look

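The difference between genotypes was not the same in BrM-like and mesenchyme-like cells for 5 members, by the edgeR test of the difference itself. The BrM-like log2 fold change minus the mesenchyme-like one was -0.97 for *Msx2*, -0.39 for *Prrx2*, -0.40 for *Msx1*, -0.27 for *Prrx1* and -0.98 for *Alx1*. *Msx2* and *Prrx2* kept the same direction in both replicates in both types. *Alx1* was high in cHet Rep1 alone (7.97 CPM against 1.10 to 1.88 in the other BrM-like libraries) and had opposite signs in the 2 replicates (-2.32 and 0.72). *Prrx1* in BrM-like cells also went opposite ways (-0.53 and 0.07), as did *Msx1* (0.27 and -0.12).

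The aSHF-like log2 fold change of *Prrx1* minus the mesenchyme-like one was -0.18. It was -0.08 and -0.09 within the replicates in aSHF-like cells and 0.15 and 0.04 in mesenchyme-like cells.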

How the results depend on the processing

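The calls of members rest on the replicate block. In mesenchyme-like cells 2 members were called, and 0 with no replicate block, 1 (*Msx2*) with DESeq2 and 1 (*Msx2*) with doublets kept, where *Msx1* had adjusted p of 0.0931 and 0.0586; 0 were called without cluster 0. In BrM-like cells 1 was called, and 0 with RLE size factors (*Prrx2* at -0.53, adjusted p = 0.0577) and 0 with no replicate block. Within mesenchyme-like clusters 4 calls became 0 with no replicate block, 1 with DESeq2 and 0 in thinned cells. For the difference between types 6 became 0 with no replicate by type term. With 1 library left out and no block, the count was 0 to 0 in mesenchyme-like and in BrM-like cells; with the block kept, only the other replicate's difference remains, with no test. The directions of *Msx1* and *Msx2* in mesenchyme-like cells and of *Prrx2* in BrM-like cells were kept in all alternatives run.

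Leaving aside left-out libraries, log2 fold changes that turned direction belong to values that were not called, apart from *Twist1* in otic vesicle-like cells (0.044 with doublets kept). With doublets kept they were -0.080 for *Msx1* in MLP-like, -5.6e-05 for *Prrx2* in aSHF-like, 0.013 for *Twist1* in BrM-like and 0.057 for *Prrx1* in endothelium-like cells. In thinned cells they were -0.67 for *Msx1* in MLP-like, -0.012 for *Prrx2* in aSHF-like, -0.039 for *Alx1* in pSHF-like, -0.30 for *Msx1*, 0.046 for *Prrx1* and 0.031 for *Twist1* in BrM-like, -0.029 for *Msx1* and 0.046 for *Prrx2* in epithelium-like, and -0.020 for *Msx1* in endothelium-like cells. With no replicate block they were -0.0020 for *Alx4* in MLP-like, -0.037 for *Alx4* in BrM-like and -0.12 for *Twist1* in epithelium-like cells. Others were -0.071 for *Alx1* in mesenchyme-like cells without cluster 0, -0.0028 for *Prrx2* in aSHF-like cells clustered with the members, -0.26 for *Msx1* in endothelium-like cells by DESeq2, and 0.0014 (RLE) and 0.00022 (DESeq2) for *Alx1* over all cells. The cause of these changes was not tested. Over all alternatives, 58 counts of calls stayed within 1.5 times the reported count and 18 did not. Of fold changes, 464 kept direction and side of the threshold or, with a library left out, moved by at most the fitted SE. A further 43 lost a call, 144 moved by more and 22 turned. With a library left out, a turn was counted only for called values. Uncalled values with opposite signs in the replicates are therefore not among the 22. Depth limits values under 5 CPM. Among these are *Alx1* in mesenchyme-like cells, *Msx2* in MLP-like, pSHF-like and endothelium-like cells, and *Alx4* in MLP-like and BrM-like cells. *Alx1* in BrM-like cells, which passed the test of the difference between types, was also under 5 CPM in every library but cHet Rep1 (7.97).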
